A study of Mus musculus with 8 samples.

Results

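Pools of mouse zygotes were compared here: 3 given mRNA for Sm proteins and 1 given mRNA for the fluorescent protein mCherry. The 11887 genes described are those with at least 50 reads in at least 1 of these 4 libraries, of 21553 genes that had a value in the series, and the injected genes Snrpb and Snrpd2 were left out. The embryos came from B6CBA F1 crosses, all were injected as 1-cell embryos, and polyadenylated RNA was taken 5 h later. A library came from embryos given mCherry mRNA, another from embryos given Snrpb mRNA, another from embryos given Snrpd2 mRNA and the last from embryos given Snrpb and Snrpd2 mRNA together. Those with Snrpb or Snrpd2 mRNA are called the Sm libraries below. Each library was made from 40 embryos pooled from 3 experiments, so no condition was replicated, and the mCherry condition rests on a single library. Another 6292 genes had between 1 and 49 reads in their highest library and 3372 had no read. At the edge of the minimum, 47 genes peaked at 49 reads and 40 genes at 50 reads.

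Sm proteins close into a ring on spliceosomal small nuclear RNAs, and this ring is built in the cytoplasm with the help of the SMN complex and the PRMT5 methyltransferase complex before the particle enters the nucleus. SNRPB and SNRPD2 are members of that ring. The mouse zygote carries a large store of maternal mRNA laid down in the oocyte, and at this stage its own genome is only starting to be transcribed, so most of the measured RNA is of maternal origin. Cumulus and granulosa cells surround the egg in the follicle, and their transcripts are used here as markers of such cells. Whether the embryo itself also held transcripts of these genes was not tested.

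The libraries held between 49461122 and 59979046 counted reads. As a check of the labels, Snrpb stood at 494 reads with mCherry and 367 with Snrpd2, against 2924694 with Snrpb and 655262 with both. Snrpd2 stood at 27 reads with mCherry and 13 with Snrpb, against 248504 with Snrpd2 and 115753 with both. Each Sm library thus carried the Sm mRNA its label names. The mCherry library lacked such high counts of either, and mCherry mRNA itself was not counted in any library. All 12 oocyte and zygote markers were detected in every library and together summed to between 11310 and 12690 CPM. Levels are given as CPM, a gene's reads scaled to a common library size, after TMM scaling, which matches the libraries on the bulk of their genes.

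The mCherry library stood apart from the other 1-cell libraries. A gene was counted as different between a pair of libraries when its ratio was at least 2-fold and the 95% interval of the ratio, which covers counting error only, excluded 1. Between 556 and 695 genes differed in this way in the 3 pairs that include mCherry, against 274 to 329 in the 3 pairs of Sm libraries. Because there is 1 mCherry library, an effect of the Sm mRNAs and a peculiarity of that single pool cannot be told apart, and no value without it exists. Every difference below carries this limit.

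No gene passed edgeR's quasi-likelihood test of the 3 Sm libraries against mCherry at an adjusted p of 0.05 (0.0% of 11887 genes, with 2 residual degrees of freedom). The lowest adjusted p was 0.0645, for Akr1c18, and 708 genes lay under 0.1, of which 533 were higher and 175 lower in the Sm libraries. At an unadjusted p under 0.05, 1714 genes were higher (14.4%) and 1076 were lower (9.05%). Counts of genes called by other tools on the same reads ran from 0 to 714 higher and 0 to 161 lower, the largest with DESeq2's Wald test. The genes were therefore also described without a test, by the side of mCherry on which the Sm libraries lay. In 4163 genes (35.0%) all 3 Sm libraries were above mCherry, and in 4170 (35.1%) all 3 were below. At least 2-fold and beyond counting error in all 3, 132 genes were higher (1.11%) and 17 were lower (0.143%). With 200 reads as the minimum these counts were 39 and 4. DESeq2 gave no adjusted p to some of the 132, among them Sfrp4, Megf10, Sdc3 and Miga1, and so could not call them. Of the 132 and the 17, DESeq2 called 56 and 4 at an adjusted p of 0.05.

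Akr1c18, which encodes the enzyme that breaks down progesterone, had 397 reads with mCherry, 1412 with Snrpb, 1605 with Snrpd2 and 1131 with both. The 3 Sm libraries lay close together and well above mCherry, at 25.1, 30.7 and 22.7 CPM against 6.98. Its log2 difference was 1.90 (SE 0.21, edgeR adjusted p = 0.0645). It also passed limma on log2(cRPKM + 0.1), as 1 of the 2 genes that did so. The other was Cdo1, cysteine dioxygenase, an abundant transcript that was lower in the Sm libraries. Cdo1 stood at 689.5 CPM with mCherry, 368 with Snrpb, 342 with Snrpd2 and 324 with both, a log2 difference of −0.999 (SE 0.13, edgeR adjusted p = 0.0749). It missed the list of 17 only because its smallest fold, with Snrpb, was 1.87.

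The genes with the largest least fold over mCherry in all 3 Sm libraries were scarce. Sfrp4, a secreted antagonist of WNT signals, had 2 reads with mCherry, 90 with Snrpb, 61 with Snrpd2 and 121 with both. The folds over mCherry were 45.5 (95% interval 12.2 to 382), 33.1 (8.79 to 280) and 69.0 (18.7 to 576), and the log2 difference was 5.53 (SE 0.85, edgeR adjusted p = 0.0749). Lox, the lysyl oxidase that crosslinks collagen and elastin, had 2, 185, 51 and 137 reads in the same order, and its least fold was 27.7 (7.28 to 235). For both genes mCherry lay far below all Sm libraries, but on a base of 2 reads.

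Megf10, an engulfment receptor, had no read with mCherry and 51, 45 and 40 reads with Snrpb, Snrpd2 and both. Against a floor of 3 reads in the mCherry library it was at least 15.2-fold higher in each Sm library. Sdc3, a syndecan, had 2, 81, 21 and 18 reads, and Miga1, a mitochondrial fusion protein, had 2, 60, 56 and 15. In these 2 genes the Sm libraries spread several-fold among themselves, and the lowest of them still lay above mCherry. Col6a1, a chain of collagen VI, was more even, with 6, 44, 68 and 52 reads.

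Erbb3, a receptor of the EGF receptor family, stood at 0.246 CPM with mCherry and at 1.56, 2.75 and 2.06 CPM in the Sm libraries, and its least fold was 6.36 (3.60 to 12.1). Hk1, the hexokinase that starts glycolysis, stood at 0.281 CPM with mCherry against 2.35, 1.51 and 1.90, with a least fold of 5.36 (3.11 to 9.83). Both had edgeR adjusted p = 0.0749. Pea15a, a death-effector-domain phosphoprotein, Trabd and Osgin2 had between 4 and 7 reads with mCherry and between 22 and 72 reads in each Sm library.

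**Figure D1:**
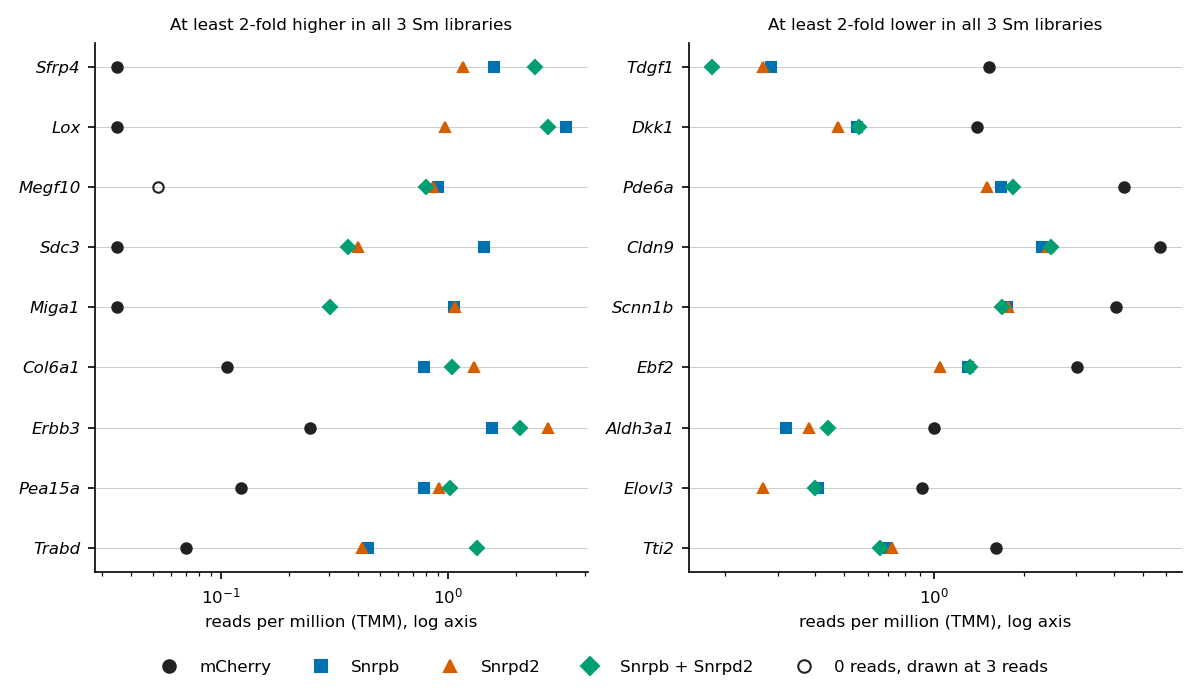
Level of the 9 genes higher and the 9 genes lower in all 3 Sm libraries that had the largest least fold, in CPM after TMM scaling (log axis), 1 point per library. The black mCherry points lie apart from all 3 coloured Sm points in every row, which the choice of these genes requires. Megf10 had 0 mCherry reads and is drawn open at the level of 3 reads.

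Of the 132 genes higher in all 3, the 6 with the highest levels are given next. Ddb1, the adaptor of the CUL4 ubiquitin ligase and a damage sensor of nucleotide excision repair, stood at 127 CPM with mCherry, 267 with Snrpb, 460 with Snrpd2 and 285 with both. Its log2 difference was 1.41 (SE 0.29, edgeR adjusted p = 0.0749), and the Snrpd2 library stood above the other two. Eif2ak4, the GCN2 kinase that senses amino acid shortage, stood at 40.9, 84.8, 132 and 84.1 CPM in the same order. Cabin1, a calcineurin-binding protein, stood at 27.1, 54.6, 91.2 and 72.7 CPM. All 3 genes were highest with Snrpd2 alone.

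Dynlt3, a dynein light chain, stood at 16.4 CPM with mCherry and 41.8, 50.8 and 34.8 CPM in the Sm libraries. Abl1, the ABL tyrosine kinase, was the most even of these genes. It stood at 15.2 CPM with mCherry and at 31.7, 34.8 and 32.9 CPM in the Sm libraries, a log2 difference of 1.12 (SE 0.16, edgeR adjusted p = 0.0749). Spp1, which encodes the secreted phosphoprotein osteopontin, was uneven, at 7.40 CPM with mCherry and 45.9, 18.6 and 36.7 CPM. Over the 132 genes the highest of the Sm libraries was the one with both mRNAs in 52, Snrpb in 46 and Snrpd2 in 34.

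The 132 genes were mostly rare transcripts. Their median level over the 4 libraries was 1.46 CPM, against 17.9 CPM for all genes tested, and 84 of them (63.6%) lay under 2 CPM, against 15.3% of all genes. The median length implied by the deposited counts and cRPKM values was 3228 bases against 2774 bases for all genes. Of the 132, 87 (65.9%, against 4.65% of all genes) had under 50 reads with mCherry and met the read minimum only in an Sm library, so they entered through the libraries where they were high. An alternative that removes the trend with gene length, chosen after seeing the data, kept 107 of the 132 and 14 of the 17, among 117 higher and 26 lower genes.

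The 17 genes lower in all 3 were also scarce, with a median of 0.925 CPM. Of these, Tdgf1, Dkk1, Aldh3a1, Elovl3, Tti2, Sema6b, Oscp1, Prl2a1, Gm5862 and Uts2b met the read minimum only with mCherry. These genes thus entered through the library where they were high. Tdgf1, the Nodal co-receptor CRIPTO, had 87 reads with mCherry and 16, 14 and 9 with Snrpb, Snrpd2 and both. It was 5.38-fold, 5.72-fold and 8.48-fold lower, with a log2 difference of −2.63 (SE 0.53, edgeR adjusted p = 0.0749). Dkk1, a secreted WNT inhibitor, had 79, 31, 25 and 28 reads. Its 3 Sm libraries lay close together, and its log2 difference was −1.39 (SE 0.47, edgeR adjusted p = 0.132).

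The best measured of the lower genes was Cldn9, a claudin of tight junctions, at 324 reads with mCherry and 129, 126 and 123 in the Sm libraries. It was 2.31-fold to 2.48-fold lower, with a log2 difference of −1.25 (SE 0.24, edgeR adjusted p = 0.0749). Pde6a, a photoreceptor phosphodiesterase, had 247, 94, 79 and 92 reads, and Scnn1b, a subunit of the epithelial sodium channel, had 232, 99, 93 and 84. Zfp937, a zinc finger gene, had 207, 66, 89 and 77 reads, and Ebf2, a transcription factor, 171, 73, 55 and 66. In all of these the 3 Sm libraries lay close to each other. That mCherry stood apart was set by the rule that chose the genes. Ap4m1, Aldh3a1, Elovl3, Tti2, Sema6b, Oscp1 and Prl2a1 had between 52 and 119 reads with mCherry and between 11 and 52 in each Sm library. The other 3 of the 17 were Gm5862, Rpl22l1 and Uts2b, which lay outside the rule for named genes.

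The summed markers of cells around the egg stood higher in each Sm library than with mCherry, and none of their genes passed edgeR. The 12 cumulus markers, with no read minimum, summed to 5.05 CPM with mCherry and to 20.6, 17.2 and 30.9 CPM with Snrpb, Snrpd2 and both. In the list of cumulus matrix and expansion genes, 5 of the 6 measured members had all 3 Sm libraries above mCherry and none had all 3 below. Over all genes 35.0% were above in all 3 and 35.1% below. The list's median log2 difference was 2.54 against 0.011 for all genes tested. Of these 6, Grem1, Vcan and Ptx3 met the minimum of 50 reads only in Sm libraries, so the count and the median describe the members that entered and support no difference. Tnfaip6, which binds hyaluronan in the matrix of the expanding cumulus, stood at 1.81 CPM with mCherry and at 10.5, 6.93 and 14.3 CPM, a log2 difference of 2.54 (SE 0.40, edgeR adjusted p = 0.0749). Ptgs2, the inducible prostaglandin synthase, stood at 0.967, 4.34, 4.37 and 8.28 CPM, and Grem1, a BMP antagonist, at 0.211, 2.38, 2.02 and 0.942 CPM. Vcan, the matrix proteoglycan versican, stood at 0.404, 0.907, 0.783 and 1.38 CPM and Has2, the hyaluronan synthase, at 1.41, 1.99, 2.39 and 2.67 CPM. Ptx3, a pentraxin of the same matrix, lay on both sides of mCherry, with 4, 7, 3 and 119 reads.

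Among the other cumulus markers Ereg had no read in any 1-cell library, Cd44 had 0 reads with mCherry and 11 to 14 in the Sm libraries, and Areg had at most 2 reads. The list of granulosa steroid and inhibin genes summed to 68.1 CPM with mCherry and 95.8, 84.5 and 113 CPM in the Sm libraries. Of 13 measured members, 8 were above in all 3 (61.5%, against 35.0% of all genes) and 1 was below (median log2 0.85). Of the 13, 5 met the minimum only in an Sm library. The most abundant was Cyp19a1, the aromatase, which stood at 35.3, 43.9, 47.1 and 41.6 CPM, a log2 difference of 0.32 (edgeR adjusted p = 0.234). Inhba, a subunit of inhibin and activin, stood at 1.74, 4.54, 4.95 and 12.4 CPM, and Fst, which encodes the activin antagonist follistatin, at 1.04, 2.01, 2.25 and 11.3 CPM. Gja1, the gap junction protein connexin 43, was high with Snrpb (8.40 CPM) and both (13.1 CPM) and near mCherry (1.93 CPM) with Snrpd2 (2.73 CPM). Other members did not follow. Kitl, which encodes KIT ligand, was below in all 3, at 4.20 CPM with mCherry and 3.56, 3.61 and 3.55 CPM. The steroid synthesis genes Star, Cyp11a1 and Hsd3b1 lay on both sides of mCherry, with 215, 151 and 36 reads there, 224, 348 and 181 with Snrpb, 133, 140 and 35 with Snrpd2 and 128, 119 and 16 with both.

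The markers of sperm and testis summed to 95.9 CPM with mCherry and 118.7 to 169.9 CPM in the Sm libraries, most of it Odf2 (90.6 CPM with mCherry and 115 to 165 in the Sm libraries). The markers of oviduct, blood and endothelium summed to 26.0 CPM against 40.0 to 50.8 CPM, most of it Pecam1, an endothelial adhesion molecule, at 22.6 CPM with mCherry and 36.8, 46.3 and 36.5 CPM. The globin genes Hbb-bs, Hbb-bt and Hba-a1 had no read in any 1-cell library. In the 2-cell mCherry library, scaled with its own stage, the sperm and testis markers summed to 597 CPM. The oviduct, blood and endothelium markers summed to 87.0 CPM there. In pooled embryos the number of carried cells, RNA per carried cell and transcripts of the embryo itself cannot be told apart. The source of the marker reads was not tested. Of the other marker lists, 1 of 4 measured sperm genes (median log2 −0.12) and 1 of 2 measured oviduct, blood and endothelium genes (0.71) lay above in all 3, and none below. Over all genes 35.0% lay above in all 3 and 35.1% below. The part of cells from around the egg in the other differences was not tested.

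Extracellular matrix genes followed the same order, with 11 of 20 measured members above mCherry in all 3 Sm libraries, 4 below and a median log2 difference of 0.51. Of the 20, 5 met the minimum only in an Sm library. Lamc1, a laminin chain, stood at 2.51 CPM with mCherry and 5.82, 5.19 and 6.27 CPM, a log2 difference of 1.20 (SE 0.25, edgeR adjusted p = 0.0749). Timp2, an inhibitor of matrix metalloproteinases, stood at 0.387, 1.49, 1.28 and 1.48 CPM, and Postn, the matrix protein periostin, at 0.281, 0.765, 1.28 and 0.982 CPM. Tnc, tenascin C, stood at 10.1 CPM with mCherry and at 26.1, 16.4 and 39.8 CPM. The most abundant member, Lamb1, a laminin chain, was near mCherry, with 281 CPM against 310, 313 and 297 CPM (log2 0.13, edgeR adjusted p = 0.603), and its sign turned to −0.08 with the length alternative. The list and the cumulus markers were high in the same libraries, and their relation was not tested.

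Some genes stood out in a single Sm library. At least 2-fold above mCherry and beyond counting error lay 3.72% of genes with Snrpb, 4.47% with Snrpd2 and 3.84% with both, and at least 2-fold below it lay 1.25%, 1.38% and 0.841%. Ctsk, the collagen-degrading protease cathepsin K, had 1321 reads with Snrpb, 0 with mCherry and 4 each with Snrpd2 and both. It was at least 445-fold higher with Snrpb than with mCherry, and 308-fold higher than with Snrpd2 (95% interval 120 to 1131). Ctss, cathepsin S, had 55 reads with Snrpb, 0 with mCherry and 1 in each of the other two. In both genes a single library carried almost all reads. Wnt7b, a WNT ligand, led in the Snrpd2 library, with 74 reads against 2 with mCherry, 10 with Snrpb and 17 with both. Gldc, the glycine decarboxylase, had 59 reads with Snrpd2 and 38, 12 and 9 with mCherry, Snrpb and both. The library with both mRNAs led for Ptx3 and for Gstm2, a glutathione transferase, which had 58 reads there and 18, 7 and 3 in mCherry, Snrpb and Snrpd2. These are single pools with no replicate.

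**Figure D2:**
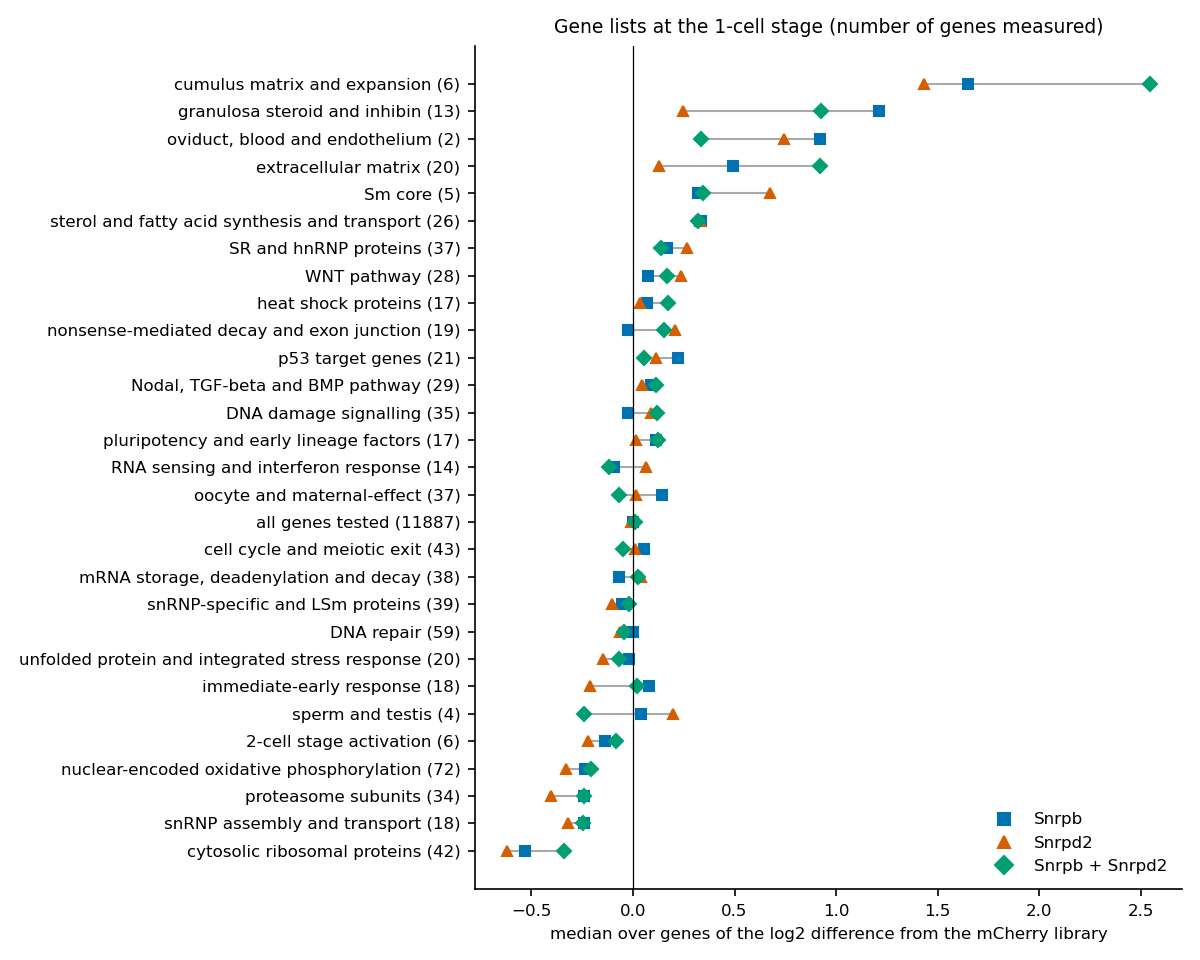
Median over the measured members of each gene list of the log2 difference from mCherry (horizontal axis), 1 point per Sm library, with the number of measured genes in brackets. Cumulus genes lie highest (1.44 to 2.54) and cytosolic ribosomal protein genes lowest (−0.62 to −0.34), while the row of all genes tested lies near 0 (−0.012 to 0.01).

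The WNT genes gave a mixed picture. Of 28 measured, 16 had all 3 Sm libraries above mCherry (57.1%, against 35.0% of all genes) and 3 had all 3 below. The median log2 difference was 0.17. Of the 28, 4 met the minimum only in an Sm library. The largest fitted difference belonged to Sfrp2, a secreted WNT modulator, and came from a single library, with 1 read with mCherry, 209 with Snrpb, 19 with Snrpd2 and 0 with both (log2 6.11, edgeR adjusted p = 0.222). Sfrp4 and Wnt7b followed among the higher genes, and Dkk1 was the lowest. Wnt7a, a ligand, was lower, at 9.90 CPM with mCherry and 7.60, 7.35 and 5.63 CPM, and Wnt4, another ligand, higher, at 1.02, 1.99, 2.73 and 1.66 CPM. Among the intracellular members Ctnnb1, which encodes beta-catenin, stood at 577 CPM with mCherry and 836, 911 and 790 CPM, a log2 difference of 0.55 (SE 0.14, edgeR adjusted p = 0.0891). Axin1, the scaffold of the beta-catenin destruction complex, stood at 77.4, 109, 131 and 108 CPM, and Lrp6, a WNT co-receptor, at 98.0, 125, 155 and 156 CPM. Axin2, a target gene of the pathway, did not separate the groups, with 100.4 CPM against 89.0, 105 and 113 CPM.

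In the Nodal, TGF-beta and BMP list 12 of 29 measured members lay above in all 3 (41.4%, against 35.0% of all genes) and 6 below. The median of 0.09 turned to −0.02 with the length alternative. Of the 29, 4 met the minimum only in an Sm library (13.8%, against 4.65% of all genes). The oocyte ligands went opposite ways. Gdf9 stood at 729 CPM with mCherry and 1388, 1153 and 890 CPM, whereas Bmp15, the most abundant member, stood at 6489 CPM and 4972, 5623 and 5532 CPM (log2 −0.27, edgeR adjusted p = 0.204). Skil, which encodes the SMAD corepressor SnoN, stood at 0.299 CPM with mCherry and at 2.12, 0.783 and 2.06 CPM. Smad3, a signal transducer of TGF-beta, stood at 84.1, 118, 170 and 123 CPM.

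In the sterol and fatty acid list 17 of 26 measured members were above mCherry in all 3 and 6 were below (median log2 0.34, with medians of 0.34, 0.33 and 0.32 for Snrpb, Snrpd2 and both). Over all genes 35.0% were above in all 3 and 35.1% below. Of the 26, 3 met the minimum only in an Sm library (11.5%, against 4.65% of all genes). Scd2, a fatty acid desaturase, stood at 4.62 CPM with mCherry and 16.6, 12.03 and 32.9 CPM, a log2 difference of 2.15 (SE 0.49, edgeR adjusted p = 0.0789). Scarb1, the HDL receptor, stood at 27.4, 54.3, 46.3 and 45.3 CPM, and Scap, the escort protein of the SREBP factors, at 209, 292, 338 and 297 CPM. Fdft1, the squalene synthase, was on the other side, at 308 CPM with mCherry and 244, 226 and 254 CPM. Members of the list thus lay on both sides of mCherry.

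The genes of the splicing machinery did not lie on a single side of mCherry. In this and the other lists, the most abundant member was named by rule, and further members were chosen after their values were seen. Of the 5 measured genes of the Sm core that were not injected, 4 were above mCherry in all 3 Sm libraries and none was below. Over all genes 35.0% were above in all 3 and 35.1% below. The median log2 difference of the 5 was 0.46. Snrpg stood at 14.6 CPM with mCherry and 27.2, 45.0 and 28.9 CPM, a log2 difference of 1.20 (SE 0.28, edgeR adjusted p = 0.0792). Snrpe stood at 52.4, 87.2, 103 and 76.8 CPM (log2 0.77, edgeR adjusted p = 0.0856). Snrpf stood at 12.3, 15.4, 19.6 and 15.6 CPM and Snrpd3 at 63.9, 77.4, 75.2 and 76.3 CPM. In Snrpg, Snrpe and Snrpf the Snrpd2 library was the highest. Snrpd1 did not separate the groups, at 104 CPM against 110, 106 and 102 CPM, and its log2 difference of 0.03 changed sign under other settings. Genes of this family have processed copies in the genome, and how the authors counted shared reads is not given in the sources used here, so their values are uncertain.

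Genes that build and carry the Sm ring lay on the other side. Of 18 measured genes of snRNP assembly and transport, 14 were below mCherry in all 3 Sm libraries (77.8%, against 35.1% of all genes). Another 2 were above (11.1%, against 35.0%), and the median log2 difference was −0.29. Prmt5, the methyltransferase that modifies Sm proteins, stood at 40.9 CPM with mCherry and at 28.2, 30.0 and 24.4 CPM, a log2 difference of −0.57 (SE 0.16, edgeR adjusted p = 0.0963). Coil, the coilin of Cajal bodies, stood at 9.36, 6.21, 5.21 and 5.79 CPM, and Snupn, the snurportin that imports the assembled particle, at 48.96, 35.5, 34.3 and 37.3 CPM. Of the Gemin subunits of the SMN complex, Gemin4, Gemin5, Gemin6 and Gemin7 were below in all 3 and Gemin2 lay on both sides. The most abundant member, Riok1, a kinase that partners PRMT5, stood at 1485 CPM and 1418, 1338 and 1307 CPM (log2 −0.13, edgeR adjusted p = 0.555). Smn1 and Coprs were the 2 above. Smn1, the SMN protein itself, stood at 252 CPM with mCherry and at 317, 285 and 259 CPM.

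The regulators of splice site choice stood slightly higher. Of 37 measured SR and hnRNP genes, 22 were above mCherry in all 3 (59.5%, against 35.0% of all genes). Another 4 were below (10.8%, against 35.1%), and the median log2 difference was 0.20. Hnrnpr stood at 13.7 CPM with mCherry and 24.8, 33.4 and 24.3 CPM, a log2 difference of 1.00 (SE 0.21, edgeR adjusted p = 0.0749). Ptbp1, the polypyrimidine tract-binding protein, stood at 325, 409, 511 and 424 CPM, and the most abundant member, Pcbp1, a poly(C)-binding protein, at 792, 915, 918 and 839 CPM (edgeR adjusted p = 0.475). Srsf2, an SR protein, was lower, at 237 CPM and 205, 180 and 201 CPM. The 39 measured snRNP-specific and LSm genes were near the bulk of genes, with 9 above, 16 below and a median of −0.02. Sf3b1, of the U2 particle, stood at 444 CPM with mCherry and 531, 588 and 539 CPM (edgeR adjusted p = 0.21). Among the 19 genes of nonsense-mediated decay and the exon junction 9 were above and 5 below (median 0.11). Rnps1, an exon junction component, stood at 146, 235, 256 and 197 CPM (log2 0.65, edgeR adjusted p = 0.0932).

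**Figure D3:**
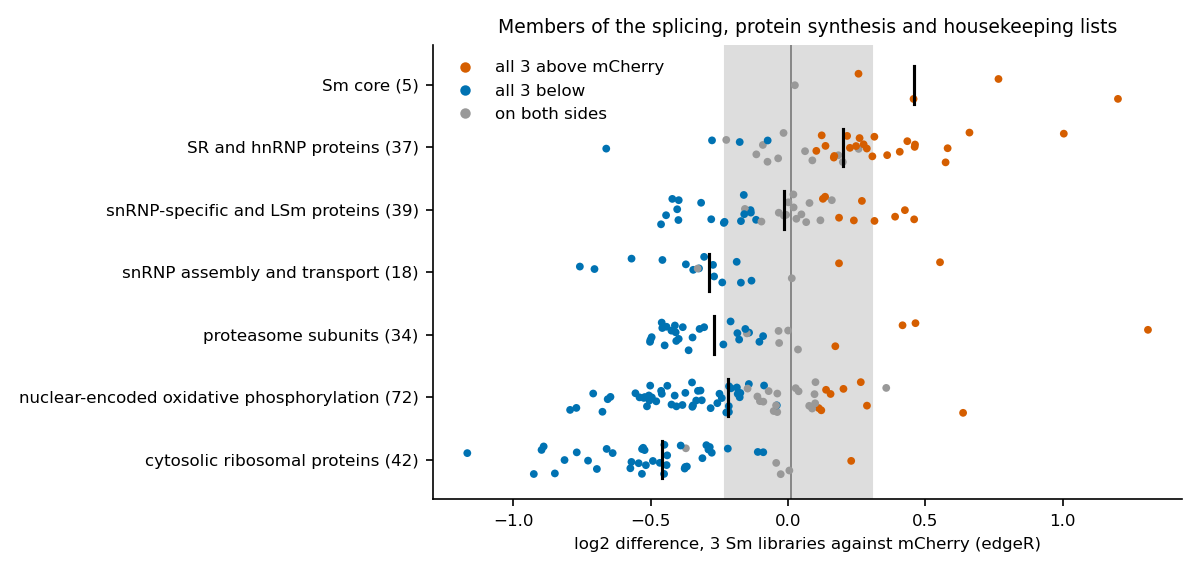
Log2 difference of the 3 Sm libraries from mCherry (edgeR) for each measured member of 7 lists, 1 point per gene, coloured by the side of mCherry on which the Sm libraries lay. The black bar is the list's median and the grey band holds the middle 50% of all 11887 genes (−0.23 to 0.31). The points of ribosomal protein genes lie left of the band for most members, and 4 of 5 Sm core genes have all 3 Sm libraries above mCherry.

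Transcripts for ribosomal proteins, the proteasome and the respiratory chain were lower in the Sm libraries. Of 42 measured cytosolic ribosomal protein genes, 37 had all 3 Sm libraries below mCherry (88.1%, against 35.1% of all genes) and 1 had all 3 above. Of 76 such genes with a value, only these 42 met the read minimum. In this and the other lists, members that met the minimum only with mCherry entered through the library where they were high. The number of such members was not counted. The median log2 difference was −0.46, with medians of −0.53, −0.62 and −0.34 for Snrpb, Snrpd2 and both, and −0.33 with the length alternative. These genes are short, with a median of 556 bases by the length that counts and cRPKM imply. Short genes as a class were lower, as described below. Rpl5, which carries 5S rRNA into the large subunit, stood at 33.2 CPM with mCherry and 20.9, 19.5 and 21.0 CPM, a log2 difference of −0.70 (SE 0.14, edgeR adjusted p = 0.0749). Rps4x, of the small subunit, stood at 14.6, 8.89, 6.93 and 9.08 CPM (log2 −0.81, edgeR adjusted p = 0.0802). The most abundant member, Rpl4, stood at 79.5 CPM and 69.1, 66.5 and 69.3 CPM, and Rpl37a was the 1 gene above in all 3, at 1.44 CPM and 1.48, 1.72 and 1.88 CPM. Ribosomal protein genes have many processed copies, so their counts are uncertain.

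Ribosomal protein genes as a class are transcribed from a start in a run of pyrimidines. The stretch around the annotated start is shown here for 4 lower members, picked among those that held the letters CTTTCC there. The sequences are RefSeq promoter windows of the GRCm38.p6 build, 25 bases before the annotated start to 25 bases from it, and the capitals mark the letters CTTTCC near the start.
Rps10, chr17:27635220-27635269, minus strand: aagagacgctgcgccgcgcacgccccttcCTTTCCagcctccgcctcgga
Rpl18, chr7:45718046-45718095, plus strand: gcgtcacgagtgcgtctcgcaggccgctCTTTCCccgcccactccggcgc
Rpl28, chr7:4792940-4792989, plus strand: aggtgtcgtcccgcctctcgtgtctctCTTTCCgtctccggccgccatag
Rpl38, chr11:114668555-114668604, plus strand: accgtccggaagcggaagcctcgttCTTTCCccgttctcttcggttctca

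Of the 11887 genes, 9306 had a RefSeq window by symbol. CTTTCC on the gene's strand, within 15 bases either side of the start, was found in 6 of 31 ribosomal protein windows (19.4%) and in 1.4% of all 9306. Rpl38 stood at 1.62 CPM with mCherry and 0.783, 0.611 and 1.16 CPM, and Rpl28 at 11.3, 7.51, 7.33 and 8.70 CPM. Rps10 stood at 10.1, 7.76, 8.21 and 8.52 CPM, and Rpl18 at 3.27, 2.24, 2.14 and 2.85 CPM. In each of the 4 genes all Sm libraries lay below mCherry.

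Of 34 measured proteasome genes, 25 were below mCherry in all 3 Sm libraries (73.5%, against 35.1% of all genes) and 4 were above. The median log2 difference was −0.27. Psmd5, an assembly chaperone of the regulatory particle, stood at 189.7 CPM with mCherry and 141, 127 and 134 CPM, a log2 difference of −0.50 (SE 0.14, edgeR adjusted p = 0.0954). Psmc2, an ATPase subunit, stood at 101, 75.3, 63.9 and 75.2 CPM, and Psma4, of the core particle, at 69.6, 49.4, 49.4 and 53.3 CPM. The largest difference in the list had the other sign. Psmd3, a scaffold subunit, stood at 55.1 CPM with mCherry and 127, 178 and 105 CPM, a log2 difference of 1.31 (SE 0.27, edgeR adjusted p = 0.0749). The most abundant, Psmd1, lay on both sides of mCherry, at 505 CPM against 516, 479 and 485 CPM.

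Of 72 measured genes of nuclear-encoded oxidative phosphorylation, 47 were below in all 3 (65.3%, against 35.1% of all genes) and 8 above. The median log2 difference was −0.22, and −0.12 with the length alternative. Ndufa8, of complex I, stood at 47.0 CPM with mCherry and 28.1, 27.0 and 31.1 CPM, a log2 difference of −0.71 (SE 0.15, edgeR adjusted p = 0.0749). Cox8a, of complex IV, was higher, at 62.6 CPM and 95.5, 107 and 89.0 CPM. Atp5b, the most abundant member, stood at 499, 577, 589 and 499 CPM (edgeR adjusted p = 0.556).

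The letters CCGGAAG, the core of binding sites for ETS-family factors, were searched on both strands of the full windows of 300 bases. They were found in 18.4% of all windows, in 35.5% of 31 ribosomal protein windows, 32.1% of 28 proteasome windows and 25.4% of 59 oxidative phosphorylation windows, and in 7.07% of the 99 windows of genes higher in all 3 Sm libraries. None of the 12 extracellular matrix or 5 cumulus windows held them. Both motifs were chosen after the windows had been inspected. The median log2 difference with and without CCGGAAG was −0.18 and −0.35 in the proteasome list (9 and 19 genes), −0.52 and −0.45 in the ribosomal protein list (11 and 20) and −0.21 and −0.22 in the oxidative phosphorylation list (15 and 44). Of the genes with the letters, 6 were below mCherry in all 3 and 2 above in the proteasome list. The counts were 9 and 0 in the ribosomal protein list and 10 and 1 in the oxidative phosphorylation list. Without the letters they were 14 and 1, 18 and 1, and 26 and 6. Genes with and without the letters thus lay mostly below, and a part of the letters was not tested. The windows of 2 proteasome genes on opposite sides of mCherry and of Clns1a, which encodes an Sm-binding assembly factor, are shown from 100 bases before the start to 25 bases from it, with CCGGAAG or its reverse complement in capitals.
Psmd12, chr11:107479428-107479552, plus strand: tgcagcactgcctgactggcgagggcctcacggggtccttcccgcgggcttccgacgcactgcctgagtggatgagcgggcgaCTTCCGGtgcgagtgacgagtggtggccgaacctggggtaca
Psmd2, chr16:20651552-20651676, plus strand: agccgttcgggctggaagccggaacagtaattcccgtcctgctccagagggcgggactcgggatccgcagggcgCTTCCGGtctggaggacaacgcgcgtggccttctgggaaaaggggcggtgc
Clns1a, chr7:97696557-97696681, plus strand: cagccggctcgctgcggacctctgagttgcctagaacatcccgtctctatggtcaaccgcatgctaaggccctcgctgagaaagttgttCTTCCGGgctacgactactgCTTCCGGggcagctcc

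Psmd12 stood at 135 CPM with mCherry and 100.4, 90.7 and 107 CPM in the Sm libraries, and Clns1a at 73.6, 64.8, 60.6 and 61.5 CPM. Psmd2 stood at 288 CPM with mCherry and 319, 344 and 310 CPM. The same letters thus precede genes on either side of mCherry.

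The difference from mCherry went with gene length. Length here is the one that the deposited counts and cRPKM values imply, so it is a mappable length. In the shortest of 10 equal classes of genes (median 757 bases) the median log2 difference was −0.19, with 21.4% of genes above mCherry in all 3 Sm libraries and 54.1% below. In the longest class (median 7530 bases) it was 0.23, with 52.1% above and 14.2% below. The slope was present in each Sm library but not equal, from −0.14 to 0.08 with Snrpb, −0.25 to 0.29 with Snrpd2 and −0.19 to 0.30 with both. Short and long genes thus stood on opposite sides of mCherry, and the median was higher in each class than in the shorter one before it.

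At the 2-cell stage, against another mCherry library, the slope ran the same way with Snrpb (−0.18 to 0.21) and both (−0.14 to 0.12) and the opposite way with Snrpd2 (0.08 to −0.10). RNA quality and library preparation were not measured, and their part in the trend was not tested. Each library is a single pool, so a slope of the pool and a slope of the condition cannot be told apart.

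**Figure D4:**
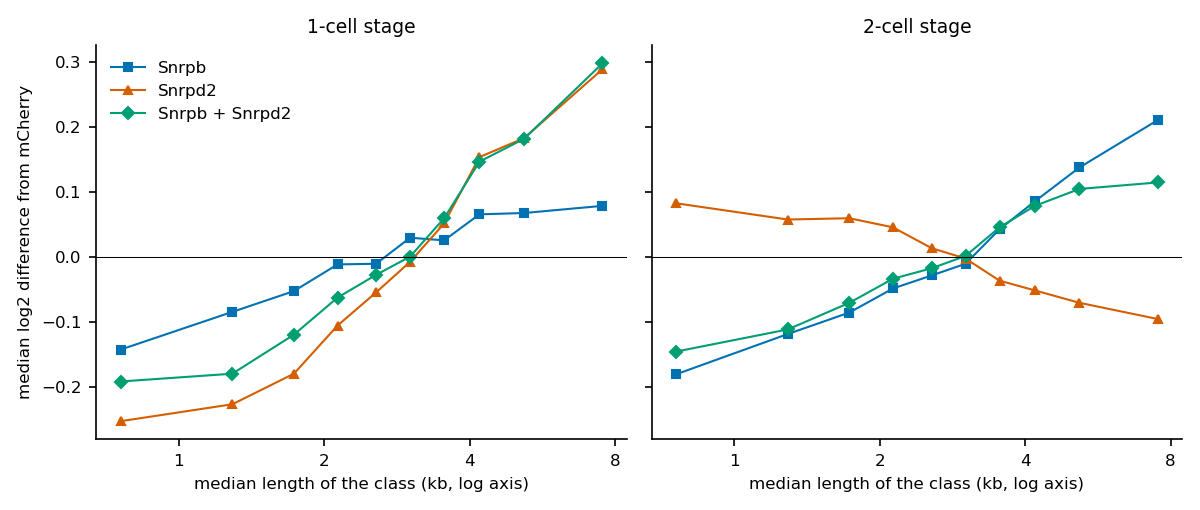
Median log2 difference from the mCherry library of the same stage for 10 equal classes of the 11887 genes by length (horizontal axis, median length of the class in kilobases, log axis), 1 line per Sm library. At the 1-cell stage all 3 lines climb from short to long genes, and at the 2-cell stage the Snrpd2 line descends while the other two climb.

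Genes of like length but different intron number differed little among short and middle genes, and more among long genes. With the genes in 3 equal classes of length, the median in the short class was −0.11 for 317 intronless genes, −0.15 for 1 to 3 introns, −0.15 for 4 to 9 and −0.13 for 10 or more. In the middle class the medians lay between −0.004 and 0.013. In the long class genes with 10 or more introns had a median of 0.19, against 0.09 to 0.13 for the other classes, and they were also the longest (median 5254 bases). With the length alternative their median was −0.012, against −0.083 to −0.035 for the other intron classes of long genes. Gene totals hold no exon junctions, so splicing itself was not analysed here.

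The remaining lists lay close to the bulk of genes. Over all genes 35.0% were above mCherry in all 3 Sm libraries and 35.1% below. The genes of DNA damage signalling (15 above and 10 below of 35, median 0.08), p53 targets (12 and 6 of 21, 0.09) and DNA repair (16 and 22 of 59, −0.03) stood near the median of 0.011 for all genes. Chek1, the checkpoint kinase, stood at 1109 CPM with mCherry and 1314, 1252 and 1180 CPM (edgeR adjusted p = 0.463). Rrm2b, the p53-regulated ribonucleotide reductase subunit, stood at 124, 157, 180 and 165 CPM (log2 0.43, edgeR adjusted p = 0.137), and Neil3, a DNA glycosylase, at 470, 469, 415 and 434 CPM. Of these 3 genes only Rrm2b had a log2 difference above 0.4.

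Oocyte and maternal-effect genes split evenly, with 14 above and 15 below of 37 (median 0.02). Zbed3, the most abundant of them, stood at 21710 CPM with mCherry and 25893, 26188 and 23548 CPM (edgeR adjusted p = 0.241). Cell cycle genes (16 and 19 of 43, 0.01), with Ccnb1 (cyclin B1) at 3140, 3735, 3378 and 2993 CPM, and genes of mRNA storage and decay (13 and 13 of 38, 0.00), with Btg4, an adaptor of the deadenylase, at 2206, 2554, 2499 and 2104 CPM, split as well. The sign of these 3 medians differed between scalings.

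Of the heat shock genes, 5 of 17 were above and 4 below (median 0.12). Hspa8, the constitutive HSP70, was lower, at 219.7 CPM with mCherry and 155, 156 and 146 CPM (log2 −0.53, edgeR adjusted p = 0.0874), and Hsp90aa1 did not separate the groups. The unfolded protein and integrated stress list had 5 above and 9 below of 20 (median −0.06), with Ern1, the IRE1 sensor, at 257, 256, 284 and 294 CPM. Among 14 measured genes of RNA sensing and interferon response 3 were above and 5 below (median 0.03). Of the 14, 2 met the minimum only in an Sm library. Adar, the RNA-editing enzyme, stood at 145, 183, 195 and 187 CPM (log2 0.38, edgeR adjusted p = 0.156).

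Immediate-early genes were divided, with 6 above and 5 below of 18 (median −0.08). Ier3 stood at 1.23 CPM with mCherry and 3.79, 2.90 and 6.84 CPM, and Egr2, a zinc finger factor, at 2.32, 8.66, 3.84 and 10.8 CPM, whereas Egr1 stood lower, at 37.6, 28.2, 32.2 and 35.9 CPM. The most abundant, Dusp1, a MAP kinase phosphatase, was at 289, 296, 239 and 229 CPM. Pluripotency and early lineage factors had 6 above and 4 below of 17 (median 0.04), with Klf17 at 2223, 2407, 2154 and 2144 CPM. Of the 2-cell activation genes only 6 were measured at this stage, 1 above and 4 below. Arg2, an arginase, stood at 441 CPM with mCherry and 325, 277 and 330 CPM (log2 −0.50, edgeR adjusted p = 0.103), and Duxf3, a copy of the factor that activates 2-cell genes, was the 1 above, at 6.51, 7.10, 7.85 and 7.84 CPM.

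The genes that differed at the 1-cell stage were then followed 24 h after injection, in the 2-cell libraries, which have their own mCherry library. Of the 132 higher genes, 46 (34.8%) were again above mCherry in all 3 Sm libraries and 16 (12.1%) were below in all 3, against 22.2% and 22.9% of all genes. At least 2-fold higher in all 3 were again 3 of the 132, against 47 of all 11887 genes (0.395%). The median log2 difference of the 132 was 0.14, compared with 1.81, 1.62 and 1.77 with Snrpb, Snrpd2 and both at the 1-cell stage. Of the 17 lower genes 3 were again below in all 3 and 8 were above, with a median of 0.26. The 1-cell values chose these genes, so their size at 5 h is set by the choice, and their smaller values at 24 h are a description only.

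Erbb3 was higher at both stages, with 1344 reads in the 2-cell mCherry library and 2578, 2191 and 2429 with Snrpb, Snrpd2 and both. Dkk1 was below mCherry in all 3 Sm libraries at both stages, with 80 reads against 36, 73 and 29. Sfrp4 had 27 reads against 27, 38 and 45, a mean log2 ratio of 0.41. Lox and Col6a1 lay on opposite sides of mCherry at the 2 stages. Lox had 114 reads with mCherry and 40, 115 and 19 in the 2-cell Sm libraries, all lower after scaling, and Col6a1 had 10 against 0, 0 and 1. Tdgf1 also lay on the other side, with 51 reads against 105, 66 and 58.

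The dependence on stage was tested over the 8 libraries with an interaction term. No gene passed at an adjusted p of 0.05 (edgeR, lowest adjusted p = 0.345), and 1296 genes (10.9%) had an unadjusted p under 0.05. The cumulus markers summed to 15.5 CPM with mCherry and to 17.7, 17.7 and 19.99 CPM in the Sm libraries at the 2-cell stage, a smaller gap than at the 1-cell stage.

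**Figure D5:**
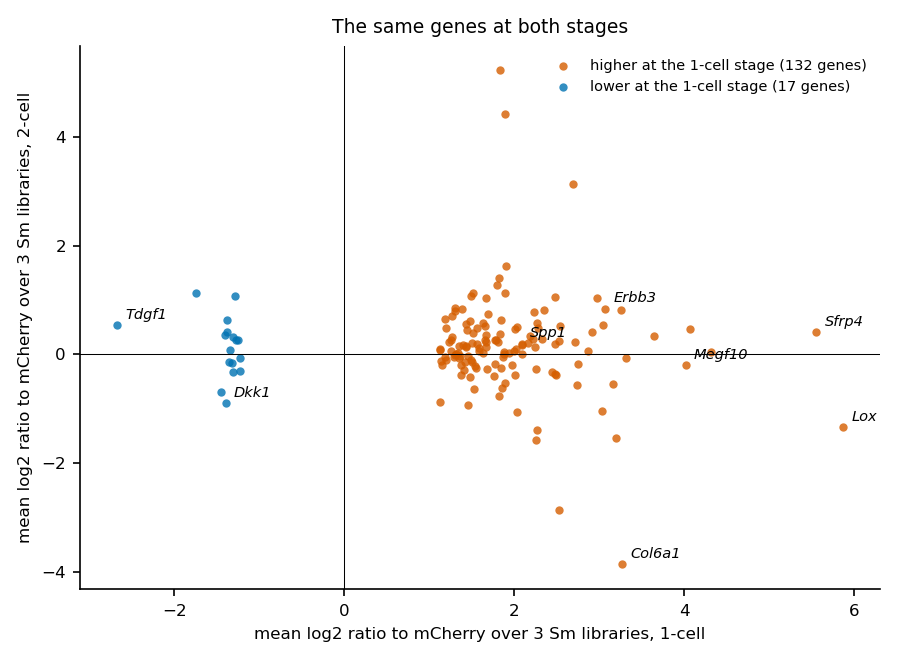
Mean log2 ratio to mCherry over the 3 Sm libraries at the 1-cell stage (horizontal axis) and the 2-cell stage (vertical axis) for the 132 higher and 17 lower genes, with an mCherry library at 0 reads set to 3 reads on the horizontal axis and 0.5 reads added on the vertical axis. The points gather around 0 on the vertical axis, with the medians at 0.14 and 0.26.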

How the data were processed

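Whole-embryo polyadenylated RNA from 4 1-cell and 4 2-cell pools was extracted with RNeasy Micro, prepared with a SMARTer Stranded kit and sequenced on a HiSeq2500, per the labels' protocols. The authors deposited, for each gene, a read count and a cRPKM (RPKM corrected for mappable length). The submitters' processing notes name the build mm9. How reads were aligned, annotated and assigned to strands is not given in the sources used here, so overlapping genes and genes with near-identical copies are uncertain. Of 22667 gene identifiers 1114 had no value, and 20451 of the 21553 with one matched a symbol.

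The counts were tested with edgeR 4.0.16 (R 4.3.3; quasi-likelihood, TMM, Benjamini-Hochberg adjustment over 11887 genes). The 3 differently injected libraries stood in for replicates, and the lone mCherry library was assumed to vary like them, so p-values measure the spread between pools. An exact permutation of 3 against 1 cannot go below p = 0.5 (two-sided). Ratios between libraries carry exact conditional binomial 95% intervals. Reads had no molecular identifiers, so intervals and the floor of 3 reads (0.0528 to 0.0601 CPM) cover counting error only. Gene length was taken from counts and cRPKM. The scripts were tested on simulated data.

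Alternatives were DESeq2 1.42.0 and its size factors, library totals, limma 3.58.1 on log2(cRPKM + 0.1) and log2(cRPKM + 1), other filters, all 8 libraries, each Sm library left out, and an offset for length (loess span 0.5). Genes were named by rule: the 12 higher and 12 lower with the largest least fold, the 6 of each with the highest level, the most abundant member of each of 28 lists (901 entries) where none was called, and the 2 leading genes of each Sm library. The members, lists and rules were chosen with earlier results of these data known. Promoter windows are RefSeq's (GRCm38.p6) and were matched by symbol, and a motif match is only a description. No coordinates of mm9 were used. Some genes that these rules or lists hold are not reported here.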

Additional observations from a re-analysis of the deposited data

Results flagged for a closer look

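Of 32 genes named for their fold or level, 12 lay on opposite sides of their stage's mCherry library at the 1-cell and 2-cell stages, with all 3 Sm libraries on 1 side at the first and on the other at the second. None passed edgeR's test of the stage difference (adjusted p from 0.345 to 0.424), and every value rests on 1 mCherry library per stage. The 32 genes were chosen for their 1-cell values and pool genes named as higher with genes named as lower. Over all genes, 22.6% of the 4163 above mCherry in all 3 at the 1-cell stage were below in all 3 at the 2-cell stage, and 21.8% of the 4170 below were above. These shares hold for each direction apart, so 12 of 32 cannot be set against either of them. Most of the 12 came from the lower genes. Whether the higher or the lower named genes changed side more often than all genes was not tested.

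Lox, Col6a1, Trabd and Hk1 were above mCherry at the 1-cell stage and below it at the 2-cell stage. The log2 difference between the stages was 6.94 for Lox, 7.74 for Col6a1, 3.78 for Trabd and 2.90 for Hk1. These values contain the 1-cell difference by which the genes were chosen, which was 2.76 for Hk1 and 3.34 for Trabd. At the 2-cell stage alone the mean log2 ratio was −1.34 for Lox, −3.86 for Col6a1, −0.54 for Trabd and −0.18 for Hk1. Col6a1 had at most 1 read in each 2-cell Sm library.

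The other 8 genes were below at the 1-cell stage and above at the 2-cell stage. The difference was −3.26 for Tdgf1, −2.06 for Pde6a, −1.57 for Cldn9 and −1.65 for Ebf2. It was −1.80 for Elovl3, −2.88 for Sema6b, −1.56 for Oscp1 and −2.43 for Ap4m1. These differences too contain the 1-cell value that chose the genes. At the 2-cell stage alone the mean log2 ratios of the 8 genes ran from 0.26 for Oscp1 to 1.12 for Sema6b.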

How the results depend on the processing

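The count of genes passing an adjusted p of 0.05 depended on the tool. It was 0 higher and 0 lower with TMM, DESeq2 size factors, filterByExpr, all 8 libraries or the length offset, which was chosen after seeing the data. It was 260 higher and 60 lower with library totals, 714 and 161 with DESeq2's Wald test, 25 and 2 without a filter, and 1 and 1 with limma at either pseudocount (Akr1c18 and Cdo1). Leaving out an Sm library gave 0 to 12 higher genes, 12 of them without the Snrpd2 library, and 0 lower. The cause of these differences was not tested. The counts of genes at least 2-fold from mCherry in all 3 Sm libraries, 132 and 17, were 39 and 4 with a minimum of 200 reads, where fewer genes enter. With 1 Sm library left out, so that only 2 had to pass, they ranged from 196 to 248 higher and from 30 to 45 lower, and the length offset gave 26 lower. The stage test called 0 genes under every alternative run. Of 66 named genes, 6 had a log2 difference that changed sign in at least 1 alternative (Lamb1, Snrpd1, Ern1, Hsp90aa1, Klf17 and Gstm2), as did 9 of 28 list medians, all within 0.12 of 0 in the main analysis. Genes under 2 CPM, 63.6% of the 132, are those where depth limits the folds most. No paired analysis was possible because the labels give no replicate numbers and each condition is a single pool.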
